A study of Mus musculus with 4 samples.

Results

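The nuclear factor I (NFI) family was examined in mouse dorsal cortex at E18.5 (embryonic day) by taking every array feature whose platform gene symbol is Nfia, Nfib, Nfic or Nfix. The 4 genes have 6 features on the array, and for each gene the feature with the highest mean over the arrays was used. They are 4 of the 19938 genes with a single symbol, and all 4 passed a filter on dim genes that left 13956 genes to test. NFI proteins are transcription factors that bind as dimers to a palindromic DNA site and share a conserved DNA-binding domain at the amino end. In the developing forebrain Nfia, Nfib and Nfix are known from radial glia, the progenitors of the cortex, and from young neurons and astrocytes. Mice that lack one of them are known for delayed maturation of progenitors and late or reduced expression of astrocyte genes. Nfic is best known from tooth development.

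The series has 4 single-colour whole-transcript arrays in 2 groups of 2. The 2 controls carry the genotype Mek1fl/wt, Mek2-/-, so 1 of their Mek1 copies is wild-type and Mek2 is absent, although the design text calls them WT. The 2 mutants are Mek1fl/fl, Mek2-/-, NestinCre, in which Nestin drives Cre recombinase in neural progenitors and the cells they form. By these labels both groups lack Mek2, and NestinCre is named for the mutants only, so the transgene and the loss of Mek1 cannot be told apart. MEK1 and MEK2 are the kinases that activate ERK1 and ERK2. The comparison addresses how the NFI genes stand in the cortex of embryos with this mutant genotype, at an age when it turns from making neurons to making glia. Values are log2 expression as deposited, made by the authors with RMA, and a difference is mutant minus control.

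The arrays lay close together, with pairwise root mean square differences from 0.149 to 0.23 over the tested genes, and the medians of all features lay between 7.11 and 7.13. The mutant 1 array was the furthest from the controls. Xist and the Y-linked genes had opposite patterns within each group, so the arrays of a group come from different embryos. The p-values rest on the spread between these arrays, which limma draws towards a spread shared over all genes. The shared spread carries 3.31 degrees of freedom and a gene's own arrays 2. For genes as steady as Nfib and Nfix the standard error therefore comes mainly from the shared spread. Map2k1, which encodes MEK1, was at 8.76 and 8.84 in controls and at 8.50 and 8.73 in mutants (difference -0.19 ± 0.09 SE, adjusted p = 0.469 in limma). Map2k2, which encodes MEK2, was at 8.57 and 8.47 in controls and at 8.57 and 8.64 in mutants, although all are labelled Mek2-/-. Its difference was 0.08 ± 0.07 (SE, adjusted p = 0.657 in limma). The labels do not give which probes of either gene lie in the deleted part. In the limma fit 141 genes were lower and 2 higher in the mutants, which is 1.02% of the 13956 genes tested. The dorsal cortex markers Neurod6, Neurod2, Slc17a6, Slc17a7, Emx1 and Emx2 were all measured above the filter.

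None of the 4 NFI genes passed the test for a change in the mutants. No member was called in limma at an adjusted p under 0.05, and none had an unadjusted p under 0.05; over all genes 1.02% were called. The family's median difference was 0.00, beside a median of 0.01 over all genes tested. The groups of 2 members, Nfib and Nfix, did not overlap, one lower and one higher in the mutants, whereas groups did not overlap in 44.3% of all genes tested (21.4% lower and 22.8% higher in the mutants). With 2 arrays in a group, a difference had to reach between 0.41 and 0.48 on the log2 scale to be called for these genes, a fold of 1.33 to 1.40.

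Nfia, the member best known for starting astrocyte formation, was at 10.86 and 10.81 in controls and at 10.89 and 10.79 in mutants. Its highest and lowest values are both mutant arrays, with the controls between them. The difference was 0.002 ± 0.064 (SE), with a 95% interval from -0.16 to 0.16 and an adjusted p of 0.997 in limma, so changes in either direction of more than 1.12-fold lie outside the interval. Only 1.55% of the tested genes had a smaller difference. The dimmer Nfia feature, which the rule did not use, was at 10.35 and 10.32 in controls and at 10.32 and 10.30 in mutants. There the mutants were lower by a narrow margin, with a difference of -0.03 ± 0.06 (SE) and an adjusted p of 0.950 when all 35557 features were fitted in limma.

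Nfib, known for the maturation of radial glia and for the midline glia of the corpus callosum, was at 12.06 and 12.05 in controls and at 12.004 and 12.035 in mutants. Both mutants lay under both controls. The difference was -0.04 ± 0.05 (SE), with a 95% interval from -0.17 to 0.10 and an adjusted p of 0.849 in limma. The interval leaves out a fall of more than 1.13-fold. The other Nfib feature was at 12.06 and 12.03 in controls and at 12.01 and 12.04 in mutants, and there the groups overlapped. Its difference was -0.02 ± 0.06 (SE, adjusted p = 0.969 in the limma fit of all features).

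Nfix, known for the timing of neural stem cell differentiation, had the largest difference of the family. It was at 12.29 and 12.33 in controls and at 12.40 on both mutant arrays. Both mutants lay above both controls, and the means were 12.31 ± 0.03 and 12.40 ± 0.004 (SD, n = 2 each). The difference of 0.10 ± 0.05 (SE) had a 95% interval from -0.04 to 0.24 and did not pass (adjusted p = 0.531, unadjusted p = 0.135 in limma). It was larger than that of 63.2% of the tested genes, so it lay well within the bulk of the genes.

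Nfic had the feature nearest to the filter level of 6.16, and it was at 7.77 and 7.72 in controls and at 7.78 and 7.70 in mutants. The mutants again enclosed the controls. Its difference was -0.001 ± 0.062 (SE), with a 95% interval from -0.16 to 0.15 and an adjusted p of 0.998 in limma.

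**Figure D1:**
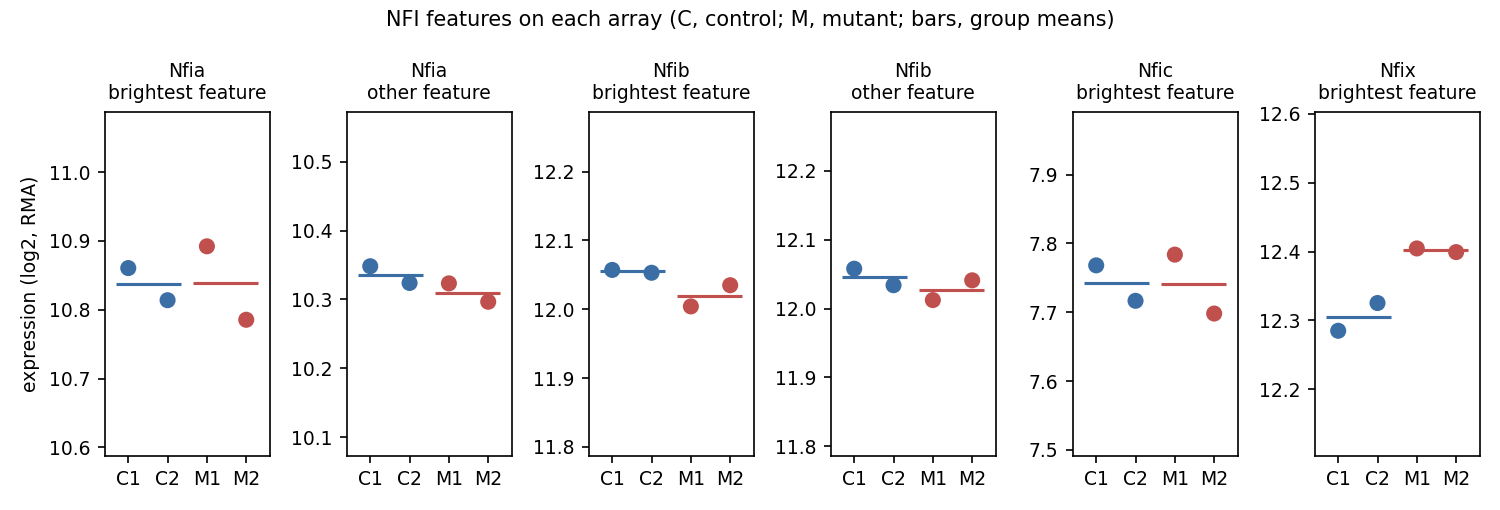
Expression (log2, RMA) of the 6 features of the NFI genes on the 2 control arrays (C1, C2) and the 2 mutant arrays (M1, M2), with bars at the group means; each panel spans 0.5 on the log2 scale around its own mean, and levels are not comparable between panels. Only Nfix shows both mutants clearly above both controls, by 0.10 on average, and the differences of all 4 genes miss the threshold in limma.

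The members were next set against each other. Over the 6 pairs of members no difference between their changes passed in limma, a test added after the values were seen. For each pair Nfib, Nfic or Nfix was subtracted from all genes on the same array, and Nfia was never the reference. The widest gap was between Nfib and Nfix, at -0.13 (95% interval -0.29 to 0.03, adjusted p = 0.307), and the narrowest between Nfia and Nfic, at 0.003 (95% interval -0.21 to 0.22, adjusted p = 1). In these fits between 1.07% and 3.32% of the genes were called against the member used as the reference. The shared spread in each fit comes from all genes after the subtraction, and so carries the deviations of the reference. The standard error was 0.103 for Nfia and Nfic and 0.068 for Nfia and Nfib. An interval here is therefore not a measure of the pair's own spread alone.

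On the features used, Nfia and Nfic moved alike over the 4 arrays. Both were highest on mutant 1, then control 1, control 2 and mutant 2. The dimmer Nfia feature did not share this order. It was highest on control 1 (10.348), then control 2 (10.324), mutant 1 (10.323) and mutant 2 (10.297). After centring each gene's used feature on its mean, Nfia and Nfic were a root mean square distance of 0.00778 apart, against 0.0476 to 0.0692 for the other pairs. Only 7 other tested genes lay closer to Nfia than Nfic did. The 3 closest to Nfia were Bbof1, Arfgef3 and Cntn3, at 0.0024 to 0.00592. The genes closest to Nfic were Zfc3h1, Fyco1 and Gm5176, at 0.00202 to 0.00573. Nfib had Zfp637, A230051N06Rik and Krr1 at 0.0025 to 0.00305, and Nfix had Npepps, Npr2 and Ppm1j at 0.00345 to 0.00423. Within a looser limit of 0.05 of a member lay between 15.4% (Nfia) and 31.2% (Nfib) of the tested genes. That share does not describe the closer distances above, and what those mean was not tested. The deviations themselves were small: 94.9% of the tested genes varied more over the arrays than Nfib, 83% more than Nfic, 77% more than Nfia and 66.9% more than Nfix.

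**Figure D2:**
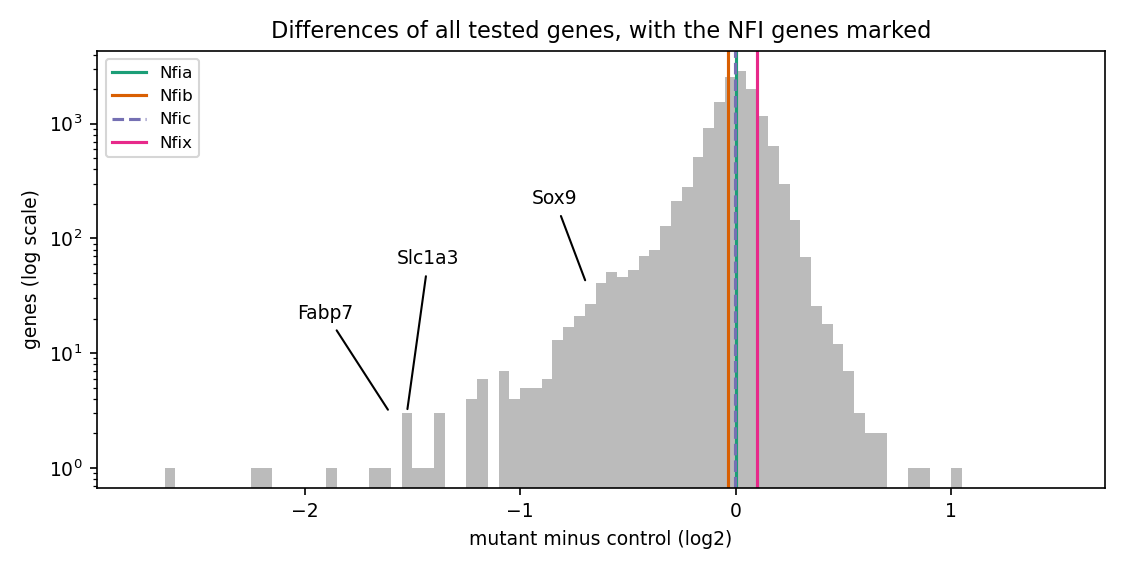
Distribution of mutant minus control (log2) over the 13956 genes tested, with the number of genes on a log scale and vertical lines at Nfia, Nfib, Nfic (dashed) and Nfix. The 4 lines fall between -0.04 and 0.10, in the tallest part of the distribution, whereas Sox9, Slc1a3 and Fabp7 lie in the long lower tail.

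Some start sites of 3 members could be read. RefSeq sequence (GRCm38.p6) was matched for 3 of the 4 genes: 1 start each for Nfia and Nfic and 4 for Nfix. The genes span chr4:97578066-98118876 (Nfia), chr10:81396191-81431919 (Nfic) and chr8:84704712-84801238 (Nfix). Every start read lies inside its gene, and the outermost start of each gene was not read. The 120 bases before the first listed start of each are shown to set their CpG content side by side, and capitals mark CpG dinucleotides.
Nfia, chr4:97581823-97581942, plus strand: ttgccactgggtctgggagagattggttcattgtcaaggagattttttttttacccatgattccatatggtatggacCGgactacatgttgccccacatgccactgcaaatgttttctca
Nfic, chr10:81427174-81427293, minus strand: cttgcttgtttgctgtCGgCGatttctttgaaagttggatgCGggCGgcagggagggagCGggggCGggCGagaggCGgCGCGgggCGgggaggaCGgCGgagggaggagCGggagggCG
Nfix, chr8:84780083-84780202, minus strand: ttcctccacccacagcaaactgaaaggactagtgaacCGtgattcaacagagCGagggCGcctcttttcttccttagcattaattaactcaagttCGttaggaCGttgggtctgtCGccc
Over the 300 bases from 250 before to 50 after the start, the Nfic start read had 63% G and C with 24 CpG. The Nfia start read had 44.7% with 2, which does not describe its outermost promoter. The 4 Nfix starts had 49.3% with 13 CpG (the one shown), 57.3% with 4, 53% with 9 and 44.3% with 2, so they reach down to the values of Nfia. The median over 32851 mouse promoters was 52.7% with 7 CpG.

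Some of the genes known as NFI targets in glia and progenitors fell in the mutants. Of the 12 on the list 11 were tested; 4 fell, none rose and 7 did not pass, with a median difference of -0.31 beside 0.01 over all genes. The rate of genes called lower over all genes was 1.01%. Of the list, 5 genes are also markers of astrocytes or radial glia, and it was put together with earlier results of these data known. It also holds Hes1 and Ezh2, known to be repressed by NFI proteins, and Sox9, known to act upstream of Nfia. Its count and median are therefore no measure of NFI activity. In whole cortex, fewer cells of a type and less RNA per cell cannot be told apart. With embryo sex as a covariate 2 genes of the list were called, Fabp7 and Slc1a3, where 17 of the 13956 genes tested were called lower. The number called also depended on which array was left out, over all genes as on this list. The differences then ran from -1.68 to -1.52 for Fabp7 and from -1.57 to -1.48 for Slc1a3.

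Fabp7, a fatty acid binding protein of radial glia, was at 12.68 and 12.62 in controls and at 10.97 and 11.13 in mutants (difference -1.60 ± 0.07 SE, adjusted p = 0.00538 in limma). Slc1a3, the glutamate transporter GLAST, was at 10.35 and 10.43 in controls and at 8.84 and 8.89 in mutants (-1.53 ± 0.06 SE, adjusted p = 0.00538). For both genes the mutant arrays lay far under the controls and close to each other. Zcchc24, a zinc finger protein reported as a shared target of SOX9 and NFIA, was at 7.89 and 7.91 in controls and at 6.62 and 7.02 in mutants (-1.08 ± 0.13 SE, adjusted p = 0.0427). Sox9, which is known to act upstream of Nfia and together with it, was at 8.85 and 8.89 in controls and at 8.09 and 8.26 in mutants (-0.69 ± 0.08 SE, adjusted p = 0.0320). The calls of Zcchc24 and Sox9 were lost in limma without control 1 (adjusted p = 0.206 and 0.201) and without control 2 (0.195 for both). Over all alternatives the adjusted p ran from 6.65e-04 to 0.316 for Zcchc24 and from 0.00297 to 0.284 for Sox9.

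The other members of the list did not pass in limma. Mmd2 and Apcdd1, reported like Zcchc24 as shared targets of SOX9 and NFIA, differed by -0.31 (adjusted p = 0.334) and -0.20 (adjusted p = 0.604). Hes1, a Notch effector known to be repressed by NFIA, differed by -0.40 (adjusted p = 0.126). Ezh2, the polycomb methyltransferase known to be repressed by NFIB, was among the steadiest, at 11.06 and 11.00 in controls and 10.98 and 10.93 in mutants (-0.07 ± 0.06 SE, adjusted p = 0.662). Insc, an adaptor of spindle orientation linked to NFIX, differed by -0.13 and Bbx, an HMG-box protein, by -0.31. Gfap, the astrocyte filament gene with the best-known NFI sites, was dim, at 6.91 and 7.12 in controls and 6.90 and 7.20 in mutants. Its groups overlapped and its difference was 0.04 ± 0.12 (SE, adjusted p = 0.941), with a sign that turned without control 1 (-0.06) and without mutant 2 (-0.11). S100b, a further astrocyte target, lay under the filter, between 5.23 and 5.71 on the arrays.

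Targets known from neurons showed no call. Cdh2, the adhesion protein N-cadherin, was at 11.53 and 11.57 in controls and 11.65 and 11.70 in mutants (0.13 ± 0.06 SE, adjusted p = 0.427 in limma). Cntn2, the axonal protein TAG-1, differed by 0.07 and Efnb1, the ephrin B1 ligand, by -0.08 (adjusted p = 0.634 and 0.621). Gabra6, a GABA receptor subunit of mature granule neurons, lay under the filter at 4.45 to 4.84.

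The NFI half-site was searched as TTGGC on both strands in the 300 bases around each start of the glial and progenitor targets. RefSeq held 8 promoters of 8 of these genes, and 6 contained the letters, whereas 46.7% of all 32851 promoters did. The longer form TTGGCA, which overlaps the first, was in 4 of the 8 and in 14.1% of all promoters, and the full palindrome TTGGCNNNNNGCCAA was in none of the 8 and in 0.0365% of all. Windows of 60 bases from 3 of the targets are shown, those of Fabp7 and Zcchc24, which fell, and of Mmd2, which did not pass, with the half-site in capitals (GCCAA is TTGGC on the other strand).
Fabp7, chr10:57784840-57784899, plus strand: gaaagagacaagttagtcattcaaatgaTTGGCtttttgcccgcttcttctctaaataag
Zcchc24, chr14:25769073-25769132, minus strand: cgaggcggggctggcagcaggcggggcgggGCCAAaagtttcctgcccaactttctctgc
Mmd2, chr5:142608826-142608885, minus strand: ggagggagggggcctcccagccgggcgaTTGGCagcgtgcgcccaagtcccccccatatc
Counted from the transcription start, with -1 the base before it, the match begins at -55 in Fabp7, at -30 in Zcchc24 and at -105 in Mmd2. Of the 6 genes whose promoter held TTGGC, 2 fell (Fabp7 and Zcchc24), Mmd2, Ezh2 and Insc were not called, and S100b lay under the filter. Of the 4 genes with TTGGCA, Mmd2, Ezh2 and Insc were not called and S100b was not tested. A match is a description of the letters. Around the members' own starts that were read, which lie inside the genes, TTGGC was found at 3 of 6, all of them Nfix.

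Some other regulators of gliogenesis fell in the mutants too. Of 21 listed, 20 were tested; 4 fell, none rose and 16 did not pass, and 19 of the 20 had a lower mean in the mutants, with a median of -0.40. Over all genes tested 1.01% were called lower and 47.7% had a lower mean. The number called depended on which array was left out, over all genes as on this list. The differences then ran from -1.43 to -1.34 for Etv5 and from -2.41 to -1.90 for Olig1. Etv5 and Etv4, ETS factors downstream of ERK, fell by 1.39 and 0.72 on the log2 scale (adjusted p = 0.00538 and 0.0227 in limma). Olig1, of the oligodendrocyte lineage, fell by 2.16 (adjusted p = 0.0251), and Sox9, already described, was the fourth. Of the 4, only Etv5 stayed called without the filter on dim genes and with embryo sex as a covariate. There Etv4 and Olig1 were each at an adjusted p of 0.066 and 0.054 in limma. Olig2 differed by -1.85 (adjusted p = 0.0567) and Sox8, a SoxE relative of Sox9, by -0.59 (adjusted p = 0.0699). Olig1 and Olig2 came down to 5.63 to 6.64 on the mutant arrays, around the filter level, so the size of their differences depends on the background. The same holds for Etv4, which was at 6.25 and 6.35 in mutants. Zbtb20, a zinc finger protein of astrocyte formation, differed by -0.40 and rested on mutant 1, which was at 9.85 where mutant 2 was at 10.45 and the controls at 10.52 and 10.58 (adjusted p = 0.462). Stat3, which carries gp130 cytokine signals to astrocyte genes, had the same order, at 8.60 and 8.60 in controls, 8.01 in mutant 1 and 8.49 in mutant 2 (adjusted p = 0.430). Pou3f2, a POU factor of late progenitors and upper-layer neurons, was at 10.40 and 10.48 in controls and 10.63 and 10.26 in mutants, so the mutants enclosed the controls as they did for Nfia and Nfic (adjusted p = 0.999).

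**Figure D3:**
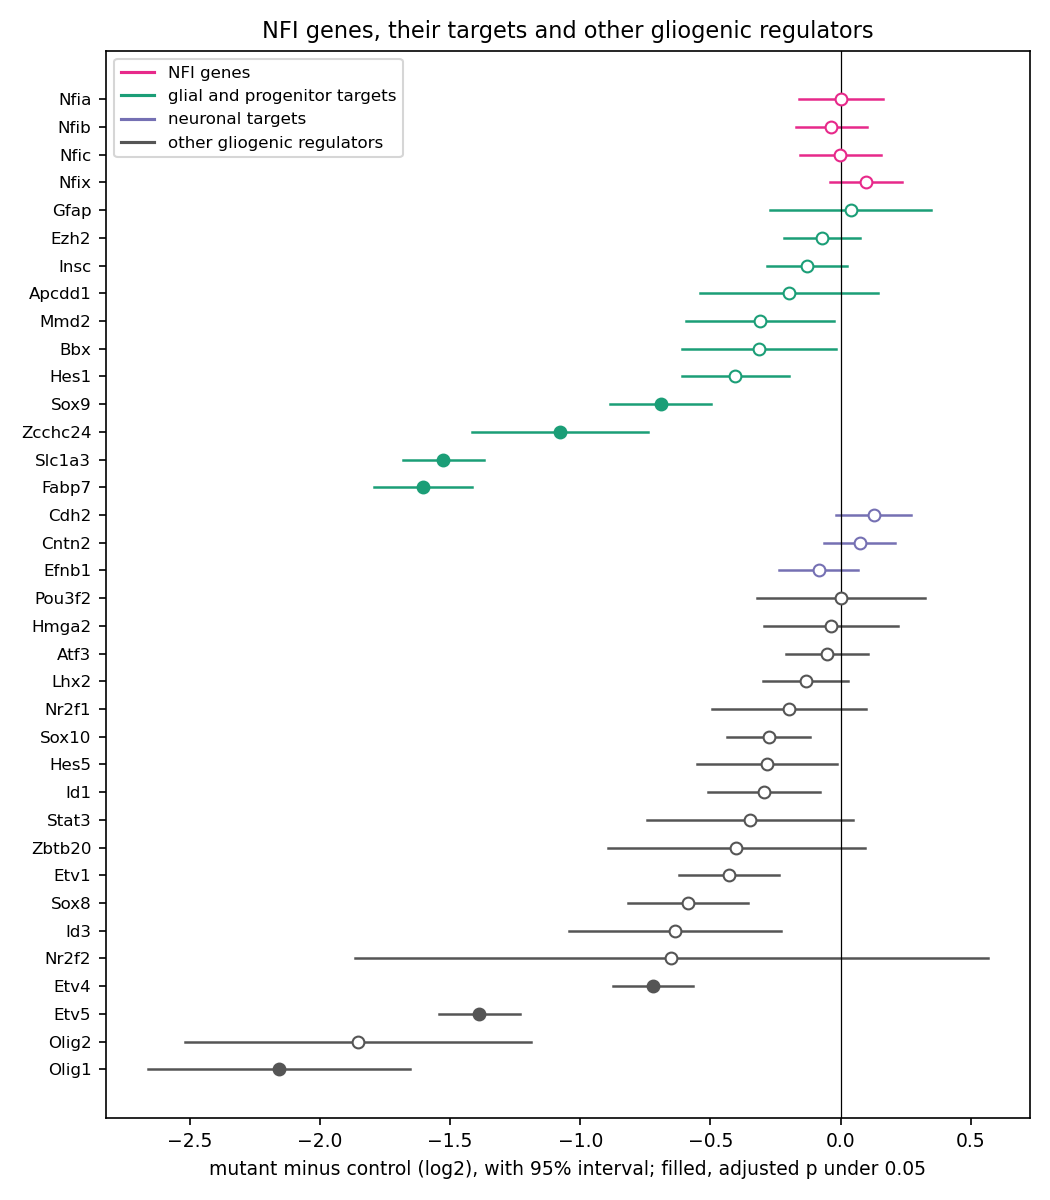
Mutant minus control (log2) with 95% intervals from limma for the 4 NFI genes, their known targets in glia and progenitors and in neurons, and other regulators of gliogenesis; filled points passed at an adjusted p under 0.05. The NFI genes sit between -0.04 and 0.10 and their intervals include 0, while Fabp7, Slc1a3, Zcchc24, Sox9, Etv4, Etv5 and Olig1 are the filled points, all on the lower side.

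Whether these genes changed differently from the NFI genes was tested by subtracting the mean of the 4 NFI genes on each array. That mean differed by 0.02 between the groups, at 10.74 and 10.73 in controls and 10.77 and 10.73 in mutants. In limma 254 of 13952 genes fell relative to the family and 17 rose, which is 1.82% and 0.122% of those tested and 1.94% in all. All 143 genes called in the comparison of the groups were among them. Every gene in this fit shares the family's own deviations, so its count is not independent of them. The variance prior also differed, with 5.6 prior degrees of freedom here and 3.31 in the comparison of the groups. Of the glial and progenitor targets the same number, 4, differed from the family: Slc1a3 by -1.54 (95% interval -1.73 to -1.36) and Fabp7 by -1.62 (-1.82 to -1.41), each at an adjusted p of 3.1e-04, Zcchc24 by -1.09 (adjusted p = 0.00881) and Sox9 by -0.71 (-0.92 to -0.49, adjusted p = 0.0109).

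Among the other regulators 6 fell relative to the family. Beside Sox9 these were Etv5 (-1.40, adjusted p = 3.1e-04), Etv4 (-0.74, adjusted p = 0.00581), Olig1 (-2.17, adjusted p = 0.00272), Olig2 (-1.87, adjusted p = 0.00711) and Sox8 (-0.60, adjusted p = 0.0172), all in limma. Olig2 had a mutant mean of 6.01, under the filter level, and was tested only through its control values. Olig2 and Sox8 were not called in the comparison of the groups, where their standard errors were 0.264 and 0.092. Here these were 0.216 and 0.088, and the part of the variance prior in the added calls was not tested. The 6 regulators became 12 with embryo sex as a covariate, where 562 of the 13952 genes tested were lower than the family. The number called also depended on which array was left out, over all genes as on this list. Sox8 was not called without control 1 (adjusted p = 0.142), nor Olig2 with a robust variance prior (adjusted p = 0.105). Hes1 (-0.42, adjusted p = 0.0823) and Etv1 (-0.44, adjusted p = 0.0616) did not pass. Gfap (0.02, 95% interval -0.27 to 0.32), Ezh2 (-0.09, -0.25 to 0.08) and Pou3f2 (-0.01, -0.28 to 0.25) did not differ from the family past the threshold either, and their intervals leave room for differences of those sizes.

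Cell types known to express NFI genes were read from marker lists on the same arrays; over all genes 1.01% were called lower. Relative to the control mean, the mean of 10 astrocyte lineage markers stood at -1.09 in mutant 1 and at -0.85 in mutant 2, and 5 of the 10 fell. Of the other 2 listed, Aqp4 was at 6.60 and 6.58 in controls and 5.81 and 5.60 in mutants, with a mean just under the filter, and S100b was given above. The mean of radial glia markers stood at -0.66 and -0.47 in mutants 1 and 2, and 2 of 10 fell, Tnc and Hopx. All 6 oligodendrocyte precursor markers were tested and 3 fell, Pdgfra, Olig1 and Gpr17, and the mean of the 6 stood near -1.3 in both mutants, at -1.304 and -1.316. Pdgfra, Gpr17 and Olig2 had mutant means of 6.15, 5.84 and 6.01, under the filter level of 6.16, so they passed the filter through their control values and their count and the list mean support nothing on their own. On the same arrays the NFI mean stood at 0.036 and -0.006.

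None of the neuron markers passed. All 6 deep-layer markers had a higher mean in the mutants (median 0.14), as did all 5 upper-layer markers tested (median 0.18). Of the upper-layer markers, however, Cux1 and Pou3f2 barely differed, by 0.008 and 0.002, and the groups overlapped for both and for Rorb. None of these 11 passed in limma, where 0.0143% of all genes were called higher. Over the deep-layer list mutant 1 stood 0.254 and mutant 2 0.135 above the control mean; over the upper-layer list they stood 0.274 and 0.018 above it. The 6 intermediate progenitor markers were all lower in mean (median -0.20), none past the threshold. Over all genes tested 47.7% had a lower mean. Among these markers Neurod4 had a mutant mean under the filter level of 6.16. It was tested only through its control values, so its lower mean supports nothing on its own. The GABAergic interneuron, endothelium and meninges lists had medians of -0.09, 0.03 and 0.05 with no member called. Mutant 1 stood apart from mutant 2 on several lists, the upper-layer list among them. Relative to the control mean, the GABAergic interneuron list was at -0.31 against 0.08 and the meninges list at -0.21 against 0.08. The dorsal cortex list was at -0.20 against 0.07 and the endothelium list at -0.10 against 0.09. With like signs, the intermediate progenitor list was at -0.37 against -0.12 and the astrocyte list at -1.09 against -0.85. On the oligodendrocyte precursor list the mutants were close, at -1.304 and -1.316. The 4 microglia markers tested had a median of -0.26, also with no call. For choroid plexus, Ttr stood out on control 2, at 9.15 against 6.50 to 7.17 on the other arrays. The part of these cell types in the steady NFI values was not tested.

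**Figure D4:**
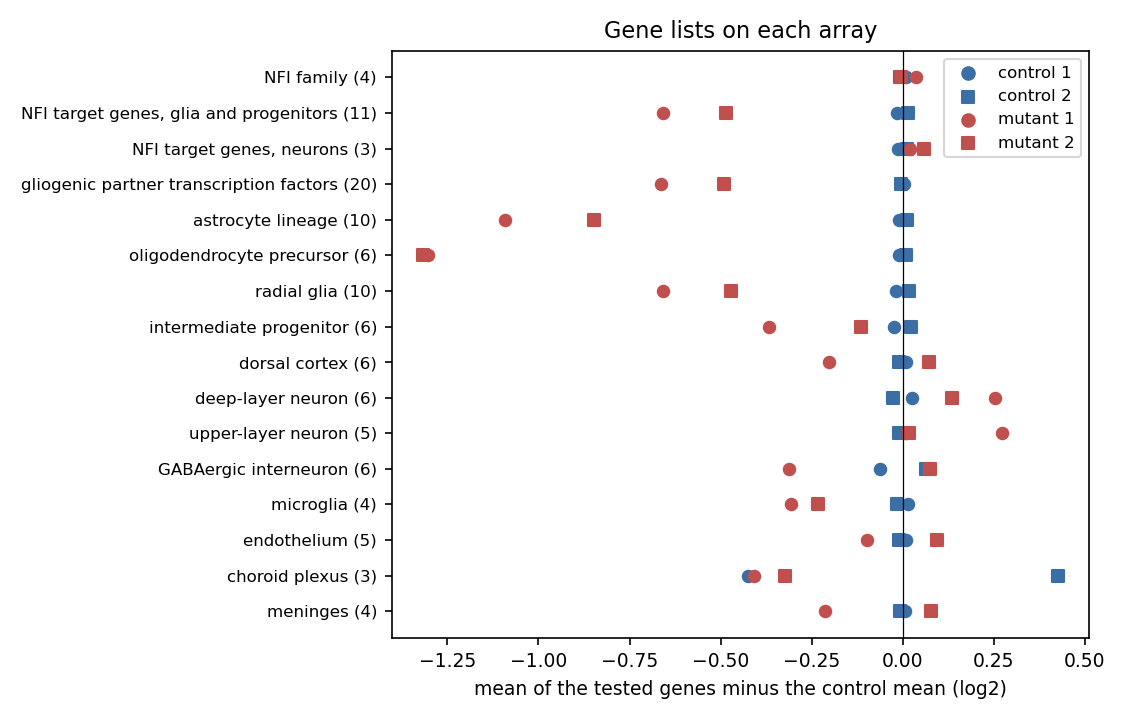
Mean log2 level of each gene list on each array minus the mean of the 2 controls, with the number of tested genes in brackets; blue marks controls, red mutants, circles replicate 1 and squares replicate 2. The NFI genes stay within 0.04 of 0 on every array, while the astrocyte, oligodendrocyte precursor and radial glia lists lie to the left on both mutant arrays. So do the glial target, gliogenic regulator, intermediate progenitor, microglia and choroid plexus lists, and for choroid plexus control 1 does too. The oligodendrocyte precursor mean includes genes that were tested only through their control values. The intermediate progenitor mean includes Neurod4, which was also tested only through its control values.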

How the data were processed

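The deposited table holds log2 expression values that the authors made with RMA, per the submitters' processing notes, for 35557 features on 4 arrays hybridised with 200 ng of total RNA each, per the labels' protocols. RMA corrects the background, quantile-normalizes and summarises probes, so a shift common to most genes is lost. The RMA version, the software and the genome build were not given in the labels. The log2 scale was taken from the values, which ran from 1.39 to 14.2. Symbols came from the platform annotation, updated by Entrez identifier (21698 of 21789 features with 1 symbol matched).

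The brightest feature was kept per gene, and genes with a mean under the 30th percentile (6.16) were left out. Mutants were set against controls in limma 3.58.1 under R 4.3.3 (lmFit, then eBayes, no covariate; 2 residual and 3.31 prior degrees of freedom), two-sided, with Benjamini-Hochberg adjustment over all genes and a threshold of 0.05. The same fit was run after subtracting the NFI mean, and the script was tested on simulated data. Named were the 4 members, genes of the fixed lists (called ones and the 2 with the smallest p first) and the 3 genes closest to each member by root mean square distance. The members and lists were chosen with earlier results of these data known. Alternatives covered the filter, normalization, variance prior, feature choice, covariates and leaving out each array. The number of arrays limits the precision, and no scanner flags for signal over background were used here.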

Additional observations from a re-analysis of the deposited data

How the results depend on the processing

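None of the 4 NFI genes was called under any of the 14 alternatives, and the lowest adjusted p in limma was 0.277, for Nfix with an intensity trend in the variance. Nfib stayed negative (-0.05 to -0.01) and Nfix positive (0.08 to 0.12). Nfia and Nfic, at 0 to 2 decimals, changed sign. Nfia was -0.0079 after further quantile normalization and -0.012 with all its features averaged, and it ran from -0.052 to 0.055 when each array was left out. Nfic was 0.019 with arrays centred on their median and 0.044 after quantile normalization, and it ran from -0.044 to 0.041 when each array was left out.

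Counts over all genes depended on the settings. The 141 lower and 2 higher genes became 15 and 0 without the filter, 0 and 0 with every feature tested, 217 and 21 with an intensity trend and 17 and 0 with embryo sex, read from Xist and Y-linked genes, as a covariate. The higher genes were 11 under the stricter filter and 1 after quantile normalization. Leaving out each array gave 9 to 731 lower and 0 to 150 higher genes. The 254 genes lower than the family and 17 higher became 123 and 5 without the filter, 161 and 10 after quantile normalization, 0 and 0 with every feature tested and 562 and 82 with embryo sex; the higher ones were 10 with features averaged. Leaving out each array gave 182 to 893 and 12 to 113. In the fit relative to the family the prior degrees of freedom rose from 5.6 to 1450 with embryo sex and without limit when a control was left out. The cause of these shifts was not tested.

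The 4 glial and progenitor targets called became 2 without the filter, 0 with every feature tested and 2 with embryo sex, and 2 to 6 when each array was left out. The 4 other regulators became 1 without the filter, 7 with an intensity trend, 0 with every feature tested and 1 with embryo sex, and 1 to 14 when each array was left out. Relative to the family, the counts of 4 and 6 were 0 and 0 with every feature tested, and the 6 became 12 with embryo sex and 6 to 15 when each array was left out. Among single genes Pou3f2 was -0.0028 after quantile normalization and -0.015 with features averaged. When each array was left out, Pou3f2 ran from -0.18 to 0.19 and Gfap from -0.11 to 0.19. Relative to the family these ranges were -0.18 to 0.15 and -0.15 to 0.19.

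The labels number the replicates alike in both groups, but same-numbered arrays deviated in opposite directions (r = -0.16 across 13956 genes, which are not independent replicates). With the replicate number as a block 113 genes were lower and 3 higher, and 372 were lower and 38 higher than the family. The crossed pairing, chosen after seeing the data, groups the arrays as embryo sex does and gave 17 and 0, and 562 and 82. No member was called under either pairing.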
